A study of Mus musculus with 6 samples.

Results

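The circadian clock genes *Npas2*, *Per1*, *Per2*, *Cry1*, *Nr1d1*, *Hlf*, *Csnk1d* and *Timeless* were followed in mouse brain. A probe set, the group of probes that reads about 1 exon, was taken for a gene when the platform's annotation gave it that single symbol. This found all 8 genes, with 148 of the 58919 probe sets, among the 5017 genes that the deposited values cover. The 3 knockout samples have the genotype APPPS1-FVBxABCC1 and the 3 control samples the genotype APPPS1-FVB, so all 6 carry APPPS1, a pair of human transgenes (mutant APP and mutant presenilin 1) driven by a neuronal *Thy1* promoter, which leads to amyloid plaques. ABCC1 names the transporter gene lost in the knockout, and FVB is an inbred strain. *Abcc1* itself was not analysed here, so the targeted gene does not check the labels. Total RNA of brain was hybridised to 1-colour whole-transcript arrays. The labels give no age, sex, brain region or hour of collection, and do not say whether the samples are separate animals, so p-values measure the spread between these samples, which may be technical. The question was whether the 6 arrays share a difference in clock phase and whether it follows the genotype.

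The mammalian clock is a feedback loop of transcription. CLOCK, or in forebrain its close relative NPAS2, pairs with BMAL1 and binds E-box sequences of the *Per*, *Cry* and *Nr1d1* genes and of many output genes. PER and CRY proteins then return to the nucleus and block that pair, while the nuclear receptor REV-ERB alpha, made from *Nr1d1*, represses *Bmal1* and *Npas2*. In tissues of mice kept in light and dark, *Npas2* therefore runs roughly against *Per1*, *Per2*, *Nr1d1* and the output factor gene *Hlf*, and *Cry1* peaks later than the *Per* genes. As a rough guide, an array taken at another clock phase would be expected to show *Npas2* moved one way and those 4 genes the other. Because the opposition is rough and the hour of collection is not given, the sign of any single pair is not fixed in advance.

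RefSeq promoter windows (GRCm38.p6, 250 bases before to 50 after a start) were matched for 6 of the 8 genes, in 7 windows because *Per1* has a pair, and no window was matched for *Per2* and *Csnk1d*. The stretches below are shown because they hold exact letter matches to the elements searched for, which include the E-box of the loop. Capitals mark each match, read 5′ to 3′ along the gene's strand, with 26 bases on each side.
Per1, chr11:69098757-69098843, plus strand: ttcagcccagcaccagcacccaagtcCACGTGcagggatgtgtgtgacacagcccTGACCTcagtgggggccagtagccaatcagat
Cry1, chr10:85185083-85185159, minus strand: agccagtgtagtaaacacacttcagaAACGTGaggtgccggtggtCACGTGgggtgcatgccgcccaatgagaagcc
Nr1d1, chr11:98775374-98775431, minus strand: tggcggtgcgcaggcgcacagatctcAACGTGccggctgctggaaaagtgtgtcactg
Hlf, chr11:90390893-90390952, minus strand: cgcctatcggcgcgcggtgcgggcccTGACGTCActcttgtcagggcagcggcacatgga
Timeless, chr10:128237883-128237942, plus strand: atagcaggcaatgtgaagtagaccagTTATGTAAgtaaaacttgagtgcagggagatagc

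*Per1* and *Cry1* hold the E-box CACGTG, which begins 166 and 60 bases before the start. *Cry1* and *Nr1d1* hold the E′-box CACGTT on the other strand, read here as AACGTG, at 79 and 28 bases before the start. *Per1* also holds the core AGGTCA of the element bound by ROR and REV-ERB receptors, on the other strand, *Hlf* holds the cAMP element TGACGTCA 9 bases before its start, and *Timeless* holds the D-box TTATGTAA, which the looser form TTANNTAA also matches. Searched on both strands of 32851 windows, the E-box was in 7.15%, the E′-box in 4.68%, the D-box in 0.938%, the looser D-box in 6.0%, the receptor core in 16.3% and the cAMP element in 1.79%. The *Npas2* window and the second *Per1* window held none of these letters. A match describes the sequence and does not show a bound site.

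The median log2 signal of an array was 7.05 to 7.09 in the knockouts and 7.04 to 7.06 in the controls. Neuronal markers read alike on all arrays, with 2 of 7 fixed markers measured (*Syt1*, *Map2*) and a mean level of 11.02 to 11.08 in knockouts and 11.02 to 11.08 in controls. The only measured cerebellar marker, *Gabra6*, a GABA receptor subunit of granule cells, set a pair of arrays apart. It had 3.53, 5.74 and 3.69 in the knockouts and 3.87, 3.82 and 6.70 in the controls, so that knockout 2 and control 3 stood 1.87 log2 units or more above the other 4 arrays by gene mean, and at 11 of 12 probe sets. All 12 are among the dim probe sets, those with a mean log2 signal of at most 5.82. The differences of the 8 genes, the signs of their correlations and the counts of the gene lists are given with and without these arrays.

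None of the 8 genes and none of the 148 probe sets differed between knockout and control past the threshold, a limma adjusted p below 0.05. The same fit called 3 of 58919 probe sets (0.00509%) and 0 of 5017 genes (0%). A gene's value is the mean log2 signal of its probe sets. Without adjustment, *Npas2* and *Csnk1d* had p below 0.05, both with higher knockout values, as had 7.95% of all genes on the higher side and 6.12% on the lower side. The smallest limma adjusted p was 0.252 among the 8 genes and 0.56 among their probe sets. Of the 8 genes 6 had higher and 2 lower knockout means, with a median log2 difference of 0.09, against 0.00 over all genes, whose quartiles were -0.07 and 0.06. The knockouts lay above all controls for *Npas2*, *Per2* and *Csnk1d* and below them for none of the 8, where 11.4% of all genes lay above and 8.85% below. Without knockout 2 and control 3, the arrays of high *Gabra6*, none passed either, and the log2 differences were 0.04 for *Per2*, -0.14 for *Per1*, -0.10 for *Cry1*, 0.12 for *Nr1d1*, 0.11 for *Csnk1d* and 0.105 for *Timeless*.

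**Figure D1:**
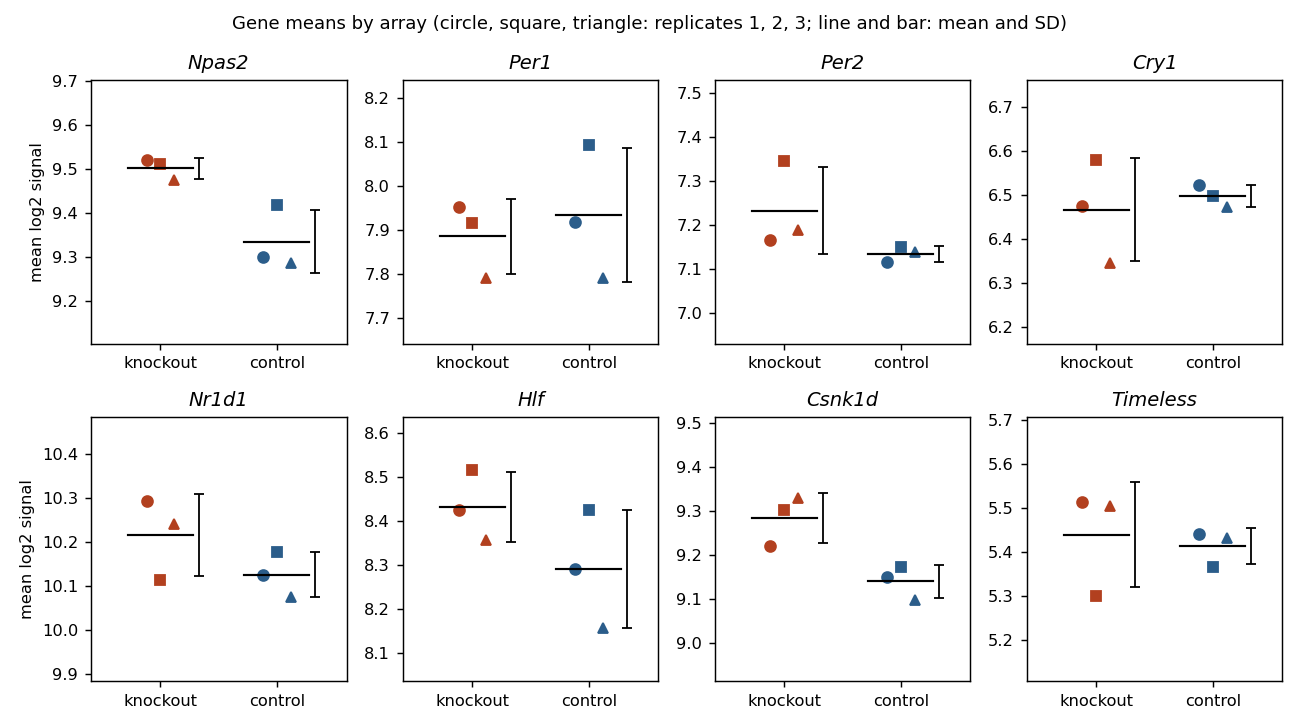
Mean log2 signal of each clock gene's probe sets (y axis, each panel spanning 0.6 log2 units) on the 3 knockout arrays (left, orange) and the 3 control arrays (right, blue); circles, squares and triangles are replicates 1, 2 and 3, and the lines and bars give the mean and SD. The groups are apart for *Npas2*, *Per2* and *Csnk1d* and overlap for the other 5 genes.

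*Npas2*, the forebrain partner of BMAL1, had the highest ratio of difference to error of the 8. Its gene mean over 22 probe sets was 9.52, 9.51 and 9.47 in the knockouts and 9.30, 9.42 and 9.29 in the controls. The log2 difference was 0.17 (SE 0.05), a 1.12-fold higher level with a 95% interval of 1.03 to 1.22 (limma adjusted p = 0.252, unadjusted p = 0.0141, rank 275 of 5017 genes by p). An exact two-sided permutation test of 3 arrays against 3 gives p = 0.1, the smallest it can give. All 22 probe sets were higher in the knockout, by 0.02 to 0.36. At 12 of them the knockouts lay above all controls, where this held for 7.94% of all probe sets. The difference was small at the low end of the IDs: 0.02, 0.03, 0.03, 0.09 and 0.07 from 10345676 to 10345680, where the groups overlapped. Of 740 genes with at least 20 probe sets, 19 (2.57%) had every probe set higher in the knockout and 1 had every one lower. In bulk tissue, more cells of a type and more RNA per cell cannot be told apart.

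Probe set 10345687 had the widest gap in *Npas2*, with 8.63, 8.71 and 8.72 in the knockouts and 8.16, 8.57 and 8.25 in the controls. The brightest, 10345678, did not separate the groups, with 11.28, 11.36 and 11.26 in knockouts and 11.30, 11.24 and 11.27 in controls. By that probe set alone the difference was 0.03, against 0.17 for the gene mean. After median centring all 22 were higher in the knockout, with the groups apart at 8, and after quantile normalization 20 of 22, with the groups apart at 9. Leaving out 1 array at a time gave 0.14 to 0.21, and leaving out both arrays of high *Gabra6* gave 0.14 (limma adjusted p = 0.563). Control 2 was the nearest control to the knockouts, and *Npas2* was highest in it at 1 of 22 probe sets.

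**Figure D2:**
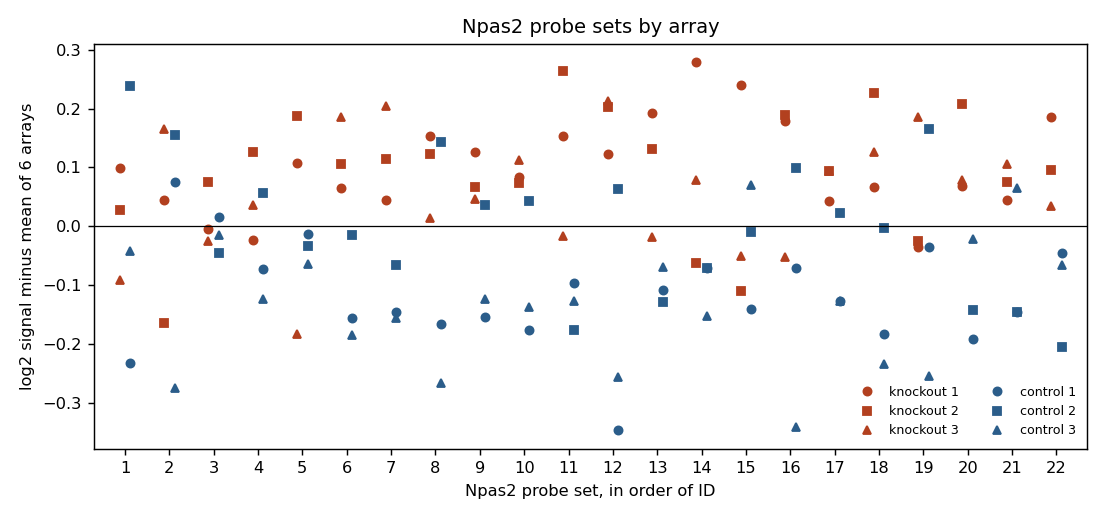
Log2 signal of each of the 22 *Npas2* probe sets minus its mean over the 6 arrays (y axis), in order of probe set ID (x axis); orange marks are knockouts, blue marks controls, and shapes give replicates 1, 2 and 3. Orange marks lie mostly above 0, less so among the first probe sets by ID, with overlap of the groups at 10 probe sets.

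Among the repressors of the loop, *Per1* and *Cry1* had slightly lower and *Per2* higher knockout means. *Per1*, whose protein closes the loop and which light, activity and glucocorticoids also induce, had gene means of 7.95, 7.92 and 7.79 in knockouts and 7.92, 8.09 and 7.79 in controls over 27 probe sets. The groups overlapped throughout, with control 2 the highest array and knockout 3 and control 3 the lowest. The log2 difference was -0.05 (SE 0.08, limma adjusted p = 0.832), a ratio of 0.967 with a 95% interval of 0.845 to 1.11, and 10 probe sets were higher and 17 lower in the knockout.

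*Per2*, the partner repressor, had 7.17, 7.35 and 7.19 in knockouts and 7.12, 7.15 and 7.14 in controls over 21 probe sets. The groups did not overlap, but knockout 2 stood away from the other 5 arrays and was the highest array at 12 of 21 probe sets. The log2 difference of 0.10 (SE 0.06, limma adjusted p = 0.496) became 0.04 without knockout 2, and 16 probe sets were higher and 5 lower in the knockout. *Cry1*, the cryptochrome that does most to hold back CLOCK and BMAL1, had 6.48, 6.58 and 6.35 in knockouts and 6.52, 6.50 and 6.47 in controls over 14 probe sets. Its controls fell inside the range of its knockouts, and 7 probe sets were higher and 7 lower. The log2 difference was -0.03 (SE 0.07, limma adjusted p = 0.859), with a 95% interval of 0.881 to 1.09 for the ratio.

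Of the rhythmic outputs, *Nr1d1* was slightly higher in the knockout at every probe set and the groups overlapped. Its gene means over 8 probe sets were 10.29, 10.11 and 10.24 in knockouts and 10.13, 10.18 and 10.08 in controls, with knockout 1 highest and control 3 lowest. All 8 differences were positive, from 0.04 to 0.18, and at none of the 8 did the knockouts lie above all controls. The log2 difference was 0.09 (SE 0.06, limma adjusted p = 0.538), 0.05 without knockout 1, 0.14 without knockout 2 and 0.06 after quantile normalization. *Nr1d1* overlaps the antisense gene *Thra*, and 1 probe set that carries both symbols was left out, as were 3 that *Per2* shares with another symbol.

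*Hlf*, a D-box activator of the PAR bZIP family that relays the clock to its targets, had the widest spread over the arrays of the 8 genes. Its gene means over 8 probe sets were 8.42, 8.52 and 8.36 in knockouts and 8.29, 8.43 and 8.16 in controls. Control 3 was the lowest array at 5 of 8 probe sets and knockout 2 the highest at 5 of 8. These are the same arrays that *Gabra6* set apart, but *Gabra6* was high on both. The log2 difference of 0.14 (SE 0.08, limma adjusted p = 0.451) was 0.07 without control 3 and 0.03 without both of those arrays, and was 0.23 over its brighter probe sets, those at or above the gene's median signal. The part of tissue make-up in this value was not tested.

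*Csnk1d* encodes the casein kinase that marks PER proteins for decay and so sets the pace of the clock, acting mainly on protein. It had 9.22, 9.30 and 9.33 in knockouts and 9.15, 9.17 and 9.10 in controls over 13 probe sets. The groups did not overlap, 12 probe sets were higher in the knockout and 1 showed no difference, and at 4 of 13 the knockouts lay above all controls, against 7.94% of all probe sets. That count was 1 of 13 after quantile normalization and 2 of 13 after median centring. The log2 difference was 0.14 (SE 0.05, limma adjusted p = 0.286, unadjusted p = 0.0229), or 1.11-fold with a 95% interval of 1.02 to 1.2. At the brightest probe set of *Csnk1d* the difference was 0.08, and the median over its 13 was 0.09. The largest, 0.53 at 10394043, had overlapping groups, with 7.07, 7.18 and 6.39 in controls.

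*Timeless*, whose protein works at replication forks and whose place in the mammalian clock is less settled, was dim, with 23 of 35 probe sets among the dim ones. Its gene means were 5.51, 5.30 and 5.51 in knockouts and 5.44, 5.37 and 5.43 in controls. The controls fell inside the range of the knockouts and the log2 difference was 0.03 (SE 0.07, limma adjusted p = 0.890), with 16 probe sets higher and 19 lower. Probe sets 10367184 and 10367196 had the largest differences of all 148, 0.73 and 0.74, at mean knockout signals of 4.58 and 4.25, levels near the median of the control features of the array, which was 4.20 to 4.29 in knockouts and 4.09 to 4.16 in controls.

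**Figure D3:**
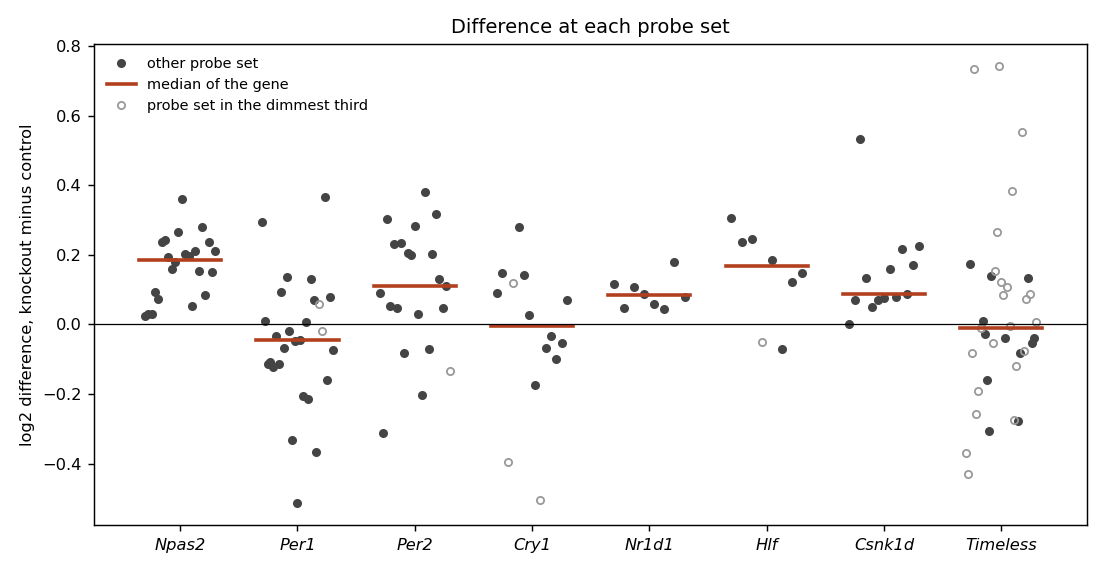
Log2 difference, knockout minus control, at each of the 148 probe sets (points, grouped by gene on the x axis); open points are dim probe sets, with a mean log2 signal of at most 5.82, and orange lines the median of the gene. All 22 points of *Npas2* and all 8 of *Nr1d1* lie above 0, and the points of *Timeless* scatter to both sides.

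Over all 148 probe sets, 97 were higher in the knockout, 50 were lower and 1 was equal, and 52.0% of all probe sets were higher. The knockouts lay above all controls at 22 and below all controls at 0, where all probe sets gave 7.94% and 5.52%, and 12 of the 22 belong to *Npas2*. At an unadjusted p below 0.05 there were 11 higher and 0 lower, against 4.75% and 2.94% of all probe sets. Probe sets of a gene read the same transcript and are not independent.

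Probe sets of a gene followed the same order of arrays for some members and not for others. The mean correlation between probe sets of a gene over the 6 arrays was 0.65 for *Nr1d1*, 0.48 for *Csnk1d*, 0.46 for *Npas2*, 0.29 for *Hlf*, 0.23 for *Per1*, 0.12 for *Per2*, 0.06 for *Cry1* and -0.01 for *Timeless*. The median over 2663 genes with at least 8 probe sets was 0.11. *Nr1d1* stood at percentile 98.2 of those genes, *Csnk1d* at 93.7 and *Npas2* at 92.3, while *Cry1* stood at 36.3 and *Timeless* at 13.6. Their gene means spanned little: from the lowest to the highest array the range was 1.16-fold for *Timeless* and *Nr1d1*, 1.17-fold for *Per2* and *Csnk1d*, 1.18-fold for *Cry1* and *Npas2*, 1.24-fold for *Per1* and 1.28-fold for *Hlf*. The median gene in the deposited values spanned 1.17-fold.

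By that rough guide, a shared phase difference would set *Npas2* against *Per1*, *Per2*, *Nr1d1* and *Hlf*. Over the 6 arrays *Npas2* did not run against them. Of the 4 pairs of *Npas2* with these genes, 0 had a negative correlation of gene means over the 6 arrays, with or without the group means removed. A shared shift would be expected to move the 6 pairs among the 4 genes together. Of these, 4 were positive, and 5 were with the group means removed. With the 2 arrays farthest from the median of the first gene left out of each pair, 6 were positive. Over the 4 arrays without knockout 2 and control 3, 1 of the 4 pairs with *Npas2* was negative, that with *Per1*, and 4 of the 6 pairs were positive. The sign expected of a shared shift was thus found in 4 of the 10 pairs over all arrays, and in 4 to 6 of 10 over the alternatives run. Over all 28 pairs of members 16 were positive, where 50.1% of all pairs of genes were.

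The closest pair ran in the same direction where a phase shift would be expected to part them. *Npas2* and *Hlf* had Pearson's r = 0.86 (exact permutation p = 0.0208, adjusted over 28 pairs 0.502) and Spearman's rho = 0.71 (exact permutation p = 0.136, adjusted 0.635). Leaving out the 2 arrays farthest from the median of *Npas2*, which narrows its range and leaves 4 arrays, gave r = 0.33, so the size of r over 6 arrays leans on them. With the group means removed over all 6 arrays r was 0.86. *Npas2* had r = 0.68 with *Nr1d1* (exact permutation p = 0.146), 0.64 with *Per2* (exact permutation p = 0.128) and 0.22 with *Per1* (exact permutation p = 0.686). The rho of these 3 pairs was 0.66, 0.77 and 0.20, with exact permutation p of 0.175, 0.103 and 0.714, and r without the 2 farthest arrays was 0.21, 0.77 and 0.69. *Per1* and *Per2*, which peak near each other in mouse tissues, had r = -0.03 (exact permutation p = 0.935) and rho = -0.26 (exact permutation p = 0.658), and r = 0.25 without the 2 farthest arrays. *Per2* and *Csnk1d* had rho = 0.89 (exact permutation p = 0.0333, adjusted 0.635) and r = 0.69 (exact permutation p = 0.0986), and r = 0.997 without the 2 farthest arrays. None of the 28 pairs passed after adjustment, with a smallest adjusted p of 0.502 for r and 0.635 for rho, and with 6 arrays an interval of r is wide.

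**Figure D4:**
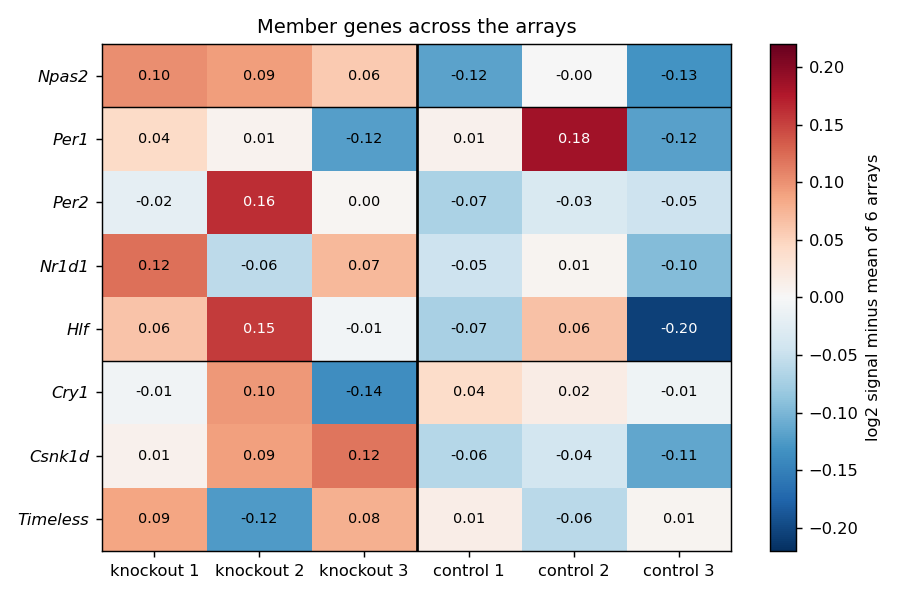
Gene mean of each member minus its mean over the 6 arrays (colour and printed value, log2 units), with knockout arrays on the left and control arrays on the right of the vertical line; *Npas2* stands above the 4 genes expected to run against it. *Npas2* shares the sign of *Hlf* and *Nr1d1* on most arrays, *Per1* peaks on control 2 and *Per2* on knockout 2.

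The highest array differed from gene to gene: knockout 1 for *Npas2*, *Nr1d1* and *Timeless*, knockout 2 for *Per2*, *Cry1* and *Hlf*, knockout 3 for *Csnk1d* and control 2 for *Per1*. Control 3 was the lowest for *Npas2*, *Nr1d1*, *Hlf* and *Csnk1d*. A phase index, the mean of the 4 centred genes minus *Npas2*, was -0.050, -0.026 and -0.069 in the knockouts and 0.073, 0.056 and 0.015 in the controls. The groups did not overlap and differed by -0.10, and *Npas2* enters the index with a minus sign. The 4 genes themselves averaged 0.07 higher in the knockout, but 0.03 without control 3 and 0.014 without both arrays of high *Gabra6*, where *Per1* was lower and the other 3 higher. By brightest probe sets the index differed by 0.03, and without both arrays of high *Gabra6* by -0.12.

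The genes most like *Per2* over the 6 arrays, among 5012 other genes whose mean varied, were *Cdc27*, *Nt5dc1* and *Cpsf2*, with Pearson's r of 0.996, 0.993 and 0.989. Those most like *Nr1d1* were *Il24*, *Map3k3* and *Coro6*, with 0.988, 0.979 and 0.974. With so many genes and 6 arrays, values of this size describe these arrays only. Among the members, *Hlf* came nearest to *Per2*, at rank 624, and *Npas2* nearest to *Nr1d1*, at rank 365, while *Per1* ranked 2558 for *Per2* and 1804 for *Nr1d1*.

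None of the other measured genes of the clock passed the threshold. Of 57 listed, 17 were measured, 14 with higher and 3 with lower knockout means and a median log2 difference of 0.06, against 0.00 over all genes. Those not measured include *Bmal1*, *Clock*, *Per3*, *Cry2*, *Nr1d2*, *Dbp* and *Tef*, so the 17 give only part of the clock. Without both arrays of high *Gabra6*, 11 were higher and 6 lower, with a median of 0.035. *Ncor1*, the corepressor that REV-ERB alpha recruits, had 9.54, 9.60 and 9.51 in knockouts and 9.39, 9.42 and 9.34 in controls, 0.17 apart on the log2 scale (SE 0.05, limma adjusted p = 0.248). Its groups did not overlap. *Prkca*, a protein kinase C tied to phase resetting, differed by 0.19, with 9.40, 9.47 and 9.36 in knockouts and 9.22, 9.35 and 9.07 in controls, and by 0.095 without both arrays. *Cipc*, which encodes a CLOCK-binding repressor, differed by 0.11 and its groups did not overlap. Of the 17, the knockouts lay above all controls for 4, *Rbm3*, *Ncor1*, *Prkca* and *Cipc*, and below for 2, *Ciart* and *Nfil3*. Over all genes this held for 11.4% and 8.85%. *Cirbp*, a cold-induced RNA-binding protein that favours *Clock* mRNA, differed by 0.16, and *Id2*, an inhibitor of helix-loop-helix factors, by 0.13.

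*Nfil3*, the D-box repressor that opposes *Hlf* and its relatives, had 6.15, 6.07 and 6.17 in knockouts and 6.27, 6.30 and 6.20 in controls, and differed by -0.12 on the log2 scale (SE 0.05, limma adjusted p = 0.358). The knockouts lay below all controls. *Rbm3*, another cold-induced RNA-binding protein, had the largest difference of the list, 0.32 (SE 0.07, limma adjusted p = 0.215), and *Ciart*, a repressor of CLOCK and BMAL1, had -0.13 (limma adjusted p = 0.310) from 1 probe set. *Rbm3*, *Ciart* and *Csnk2a1* are on chromosomes X, 3 and 2 in RefSeq, while their ID neighbours lie on chromosomes 1, 10 and 1, so these probe sets may read another locus. All 8 clock members have ID neighbours on their own chromosome. Without those 3 genes 12 of 14 were higher and 2 lower. Over the 17, 4 had an unadjusted p below 0.05, *Rbm3*, *Ncor1*, *Ciart* and *Prkca*, and 2 over the 14, where 7.95% of all genes had such a p on the higher side and 6.12% on the lower side. The 2 of 14 are near that background.

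**Figure D5:**
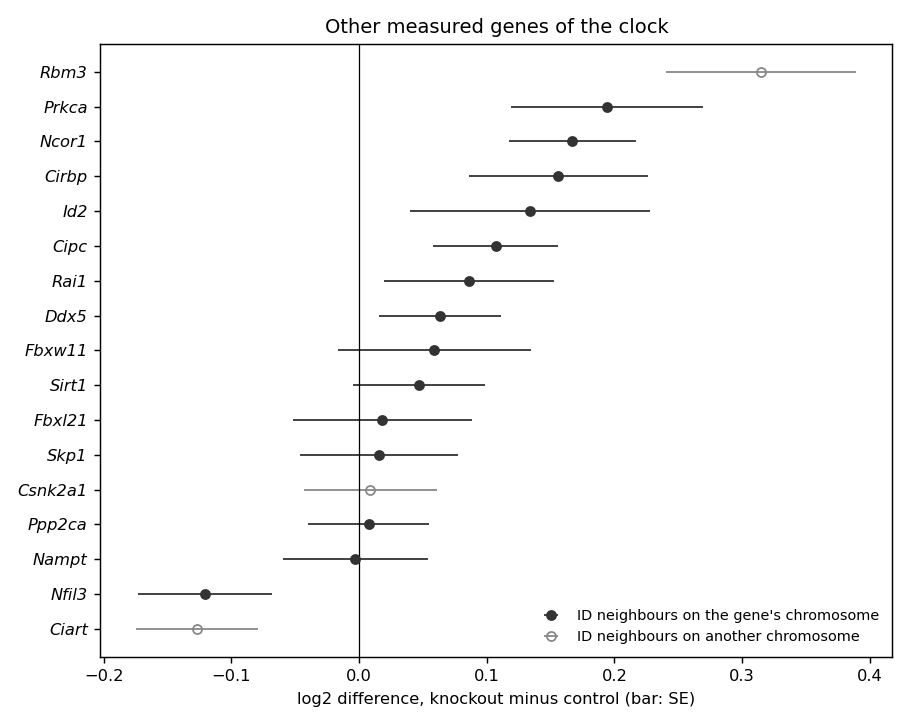
Log2 difference of the gene mean, knockout minus control (x axis, bars give the SE), for the 17 other measured genes of the clock list, ordered by size; open points are genes whose ID neighbours lie on another chromosome. Values run from -0.13 for *Ciart* to 0.32 for *Rbm3*.

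Because *Per1* and *Per2* also answer to light, activity and glucocorticoids, genes induced by these were set beside them. Of 29 listed, 13 were measured, 5 higher and 8 lower, with a median log2 difference of -0.08 and none past the threshold, and 3 higher and 10 lower without both arrays of high *Gabra6*. *Homer1*, a postsynaptic scaffold gene with an activity-induced short form, had 9.04, 9.26 and 9.06 in knockouts and 8.77, 8.90 and 8.78 in controls, with no overlap and a difference of 0.30 (SE 0.07, limma adjusted p = 0.215), or 0.21 without both arrays. *Rgs2*, a regulator of G protein signalling, differed by -0.21, *Atf3*, a stress-induced factor, by -0.25 and *Ddit4*, a glucocorticoid-induced inhibitor of mTOR signalling, by -0.16, and without both arrays by -0.18, -0.13 and -0.08. *Fos* differed by -0.08 (SE 0.14), and by -0.32 without both arrays. Of the 13, 3 had a limma unadjusted p below 0.05, *Homer1* higher and *Rgs2* and *Atf3* lower, against 7.95% and 6.12% of all genes. The knockouts lay above all controls for 2 and below for 2, where 11.4% and 8.85% of all genes did. The induced genes went to both sides, more of them lower, with a median of -0.10 without both arrays. *Per1* was slightly lower and *Per2* higher.

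Clock outputs and markers of the suprachiasmatic nucleus, the hypothalamic seat of the master clock, were measured for 8 of 25 genes, 4 higher and 4 lower, none past the threshold, and 1 higher and 7 lower without both arrays of high *Gabra6*. *Vip*, the peptide that keeps neurons of that nucleus in step, had 7.02, 6.82 and 7.15 in knockouts and 7.26, 7.03 and 7.37 in controls, and differed by -0.22 on the log2 scale (SE 0.11, limma adjusted p = 0.406), with overlap by 1 knockout array, and by -0.06 without both arrays of high *Gabra6*. Cortical interneurons also express it. The other genes with the smallest p, *Ube2o*, *Nms* and *Lhx1*, differed by 0.07, 0.06 and 0.06.

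*Npas2* is a forebrain gene, so regional markers stand beside its value. Striatal markers were measured for 4 of 8, 2 higher and 2 lower, with a mean level of 8.49 to 8.56 in knockouts and 8.43 to 8.63 in controls. Of 8 forebrain and cortex markers only *Prox1* was measured, at 7.71, 7.72 and 7.53 in knockouts and 7.45, 7.64 and 7.54 in controls. Astrocyte markers were lower in all 3 measured of 7, with a mean level of 9.75 to 10.03 in knockouts and 10.004 to 10.263 in controls. *Gfap* differed by -0.48, *S100b* by -0.21 and *Aldoc* by -0.02. *Gfap* was lowest on knockout 2 (9.02) and highest on control 3 (10.42), the arrays of high *Gabra6*. Meningeal and vessel markers were lower in 4 of 5 measured of 7, at 6.69 to 6.79 in knockouts and 6.70 to 7.05 in controls. The 4 were *Col1a1*, *Col3a1*, *Dcn* and *Lum*, while the vessel marker *Pecam1* differed by 0.06. The 3 measured of 8 hypothalamic markers were all lower, with a median difference of -0.13. Of 7 microglial markers only *Cd68* was measured (-0.41), of 7 oligodendrocyte markers only *Cnp* (-0.05) and of 7 choroid plexus markers only *Kcnj13* (0.21). *Cd68* was lowest on knockout 2 (6.68), with 7.54 on knockout 1, 7.39 on knockout 3 and 7.47 to 7.71 in controls. Hindbrain *Hoxb* genes, 7 measured of 9, were dim, at 4.51 to 4.55 in knockouts and 4.52 to 4.59 in controls. *Aanat* and *Pdc*, the 2 measured of 8 pineal and photoreceptor markers, were dim, with a mean level of 4.31 to 4.39 in knockouts and 4.36 to 4.42 in controls. None of these marker genes passed the threshold. The part of tissue make-up in the *Npas2* value was not tested.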

How the data were processed

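The authors deposited 1 table of log2 signals per probe set, given to 2 decimals. MAS5 is the tool named, per the submitters' processing notes, without a version. The log2 scale was read from the values, 1.69 to 14.41. How arrays were brought to a common scale and the genome build are not given in the sources used here. Of 65535 rows, 6616 with IDs below the first annotated probe set were taken as control features and left out. Symbols were updated through RefSeq (GRCm38.p6), and the probe sets with a single symbol gave 5017 genes. The members, and the listed genes whose ID neighbours share their chromosome, lie on chromosomes 1, 10, 11, 12 and 13. Shares of all genes thus refer to the genes in the deposited values, not to the whole genome. The signals were used without further normalization. Knockout minus control was fitted with limma 3.58.1 (R 4.3.3; lmFit and eBayes, two-sided, Benjamini-Hochberg over all features), once over 58919 probe sets and once over gene means, and the fits were tested on simulated data. Intervals are limma's 95% intervals. Correlations used all 720 permutations of 6 arrays. Precision is limited by having 6 arrays. The members and lists were chosen with earlier results of these data known. Named genes are all members, the 8 of the clock list and the 4 of each of the other lists with the smallest p (with *Fos* and the marker genes added after their values were seen), and the 3 most like *Per2* and *Nr1d1*. Alternatives covered scaling, a filter on dim probe sets, the variance model, array weights, the replicate block, each array left out, the gene summary and the threshold.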

Additional observations from a re-analysis of the deposited data

How the results depend on the processing

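The counts of member probe sets, member genes, other clock genes, induced genes and clock outputs past the threshold were 0 in every alternative run, and so was the count of correlated pairs. Over all probe sets 3 passed as deposited, 6 after quantile normalization, 7 after median centring and with array weights, 19 without the dim probe sets, 21 with a variance trend and robust moderation, and 0 to 4 leaving out each array. *Npas2*, *Per2*, *Nr1d1*, *Csnk1d* and *Hlf* kept a positive log2 difference in every alternative, with adjusted p of 0.144 to 0.888 for *Npas2*. The sign turned for *Cry1* without the dim probe sets (0.03), and for *Timeless* without them (-0.044), at its brightest probe set (-0.307) and over its brighter probe sets (-0.021). Leaving out each array gave -0.12 to 0.031 for *Per1*, -0.088 to 0.028 for *Cry1* and -0.011 to 0.095 for *Timeless*. Of the 10 phase pairs, 4 had the sign expected of a shared shift over all arrays, after quantile normalization and after median centring. The count was 5 over brighter probe sets, with group means removed and without the arrays of high *Gabra6*. It was 6 by brightest probe set and without the 2 farthest arrays. The phase index, whose alternatives were chosen after seeing the data, was 0.026 by brightest probe sets and -0.113 to -0.084 leaving out each array. The cause was not tested. The arrays without knockout 2 and control 3 and the list without genes whose ID neighbours lie on another chromosome were also chosen after seeing the data. The same-numbered knockout and control arrays had correlated deviations of 0.02, -0.08 and -0.06 over genes. No knockout array correlated best with the control of its own number. Knockouts 1 and 3 correlated best with control 2, and knockout 2 with control 3. With the replicate block *Npas2* had a difference of 0.17 with an adjusted p of 0.312, and 0 of all probe sets passed, against 3 without it; it changed no call of a member. Low signal limits *Timeless* most.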
